A study of Mus musculus with 24 samples.

Results

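Protein-protected sites (PPSs) in 5′ untranslated regions (5′ UTRs) were examined in MEL cells, a murine erythroleukemia line that differentiates along the erythroid lineage when grown with DMSO. A PPS is a stretch of RNA that survived digestion by an RNase better while crosslinked proteins were present than after they had been removed. A PPS was taken as a 5′ UTR site when its midpoint lay in a 5′ UTR exon of a protein-coding transcript on the same strand (GENCODE M21, mouse build mm10) and in no coding sequence of that strand, and PPSs of 20 to 40 nt were left out. By this rule 9406 of 356432 PPSs were 5′ UTR sites: 3217 of 114907 at day 0, 3486 of 119487 at day 2 and 2703 of 122038 at day 4. They lay in 2316, 2466 and 1904 genes, and in 3624 genes over all days.

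The study digested formaldehyde-crosslinked MEL cells with a nuclease specific for single-stranded RNA (ssRNase, RNaseONE) or for double-stranded RNA (dsRNase, RNaseV1). The cells were undifferentiated (day 0) or had grown with DMSO for 2 or 4 days, and all of them were crosslinked. Each day had 8 libraries, with 2 replicates of each nuclease digested before and 2 after removal of protein, and the deposited list of a day pools them. The names inside each entry give the nuclease and replicate of every merged call, hence 4 call sets per day. All samples come from the same cell line in culture, and the libraries kept the strand of the RNA. Of 12 erythroid marker genes, 10 held exonic sites at day 0, 11 at day 2 and 12 at day 4, whereas all 8 markers of other blood lineages, among them Cd3e, Csf1r and Mpo, were listed at 0 at each day. The lists do not show how deeply each library was sequenced. The call sets held between 14832 PPSs (dsRNase replicate 2 of day 2) and 73952 PPSs (ssRNase replicate 2 of day 2). More protection and more RNA of a gene cannot be told apart in them, nor can fewer cells of a type and less RNA per cell.

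The 5′ UTR is the stretch of an mRNA between the cap and the start codon. In cap-dependent translation the small ribosomal subunit is loaded at the cap with initiation factors and scans towards the start codon. Short upstream reading frames, folded G-rich stretches and binding sites of regulatory proteins in this region change how often the main reading frame is used. In erythroid cells the best-known example is the iron-responsive element, a hairpin bound by iron regulatory proteins in the messages of ferritin and of erythroid ALA synthase.

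Sequences are shown here for the start codon, because many 5′ UTR sites run across it. Each line gives 30 nt on the sense strand, read 5′ to 3′ from mm10, with the annotated start codon in capitals. Each lies inside a site called in both replicates of its day.
Mrfap1 day 2: agcagagcagcggcgATGcggcccctggac
Dnm2 day 0: gcggaggcggacaccATGggcaaccgcggg
Aatf day 0: agtgacctggtgaccATGgcggcgccgcag
Man1a2 day 0: ccaagagcctaaacgATGactaccccagcg
Nop16 day 0: ggggcagttagcgagATGcccaaggctaag
The Mrfap1 stretch lies at chr5:36796579-36796608 on the minus strand and the Dnm2 stretch at chr9:21425081-21425110 on the plus strand. The Aatf stretch is chr11:84513368-84513397, that of Man1a2 chr3:100684848-100684877 and that of Nop16 chr13:54589953-54589982, all on the minus strand. All 5 lie in exon 1 at the boundary of 5′ UTR and coding sequence. Among the 1325 sites of all days that reached an annotated start codon without touching an intron, 1320 held ATG at that place. That count checks the coordinates against the annotation and does not bear on protection.

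The highest-scoring sites of each day show how different the protected 5′ UTR stretches were in base composition. The score is the enrichment value deposited with each PPS, and how libraries were scaled for it is not given in the sources used here. Below are the central 30 nt of the 2 highest-scoring sites of each day, with runs of 3 or more G in capitals.
Mta2 day 0: cggtgtcccggcgtgaggctatagcagtgt
Arf6 day 0: GGGGaaGGGcagttccGGGccggccgcgcc
Man1a2 day 2: gaggctgcggagcggtggagcggaggaggc
Fam193b day 2: gacgaggcgtggcggaagatgcgtttggct
Epb41 day 4: ggagactgtgaagaataaagtggaatatct
Mgea5 day 4: tgccattataaattttgaaataattattat
The Mta2 site (chr19:8941994-8942320, exon 1, score 94.4) lies in the leader of a chromatin-remodelling subunit message and had 37.3% G and 31.2% C. The Arf6 site (chr12:69372324-69372764, exon 2, score 94.4), in the message of a small GTPase of membrane traffic, was 441 nt long and had 42.6% G and 35.1% C. The Man1a2 site (chr3:100685221-100685468, exon 1, score 73.3) belongs to a Golgi mannosidase and had 42.3% G, and the Fam193b site (chr13:55569690-55569951, exon 1, score 71.6) had 35.9% G. The Epb41 site (chr4:132071418-132071726, exon 1, score 141.6), in the message of the red cell membrane protein 4.1, had 29.4% G and 49.2% G+C. The Mgea5 site (chr19:45762291-45762548, exon 1, score 84.6), in the message of the enzyme that removes O-GlcNAc from proteins, had only 19.8% G and 36.4% G+C. It lies in the 5′ UTR of a transcript that starts inside the gene. Day 4 sites in the 5′ UTR of another Mgea5 transcript, nearer the start of the gene, had 72.1% to 74% G+C.

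A smaller share of the PPSs lay in 5′ UTRs at day 4 than at day 0. Of the undifferentiated list 2.80% were 5′ UTR sites, with a Wilson 95% interval of 2.71 to 2.90. Of the day 2 list they made up 2.92% (2.82 to 3.01), and of the day 4 list 2.21% (2.13 to 2.30). These intervals cover counting error only, and PPSs are not replicates. In the ssRNase call sets the share was 3.03% and 3.10% in the 2 replicates of day 0, 3.58% and 2.95% at day 2, and 2.84% and 2.50% at day 4. In the dsRNase call sets it was 2.52% and 3.18% at day 0, 3.19% and 3.90% at day 2, and 1.92% and 1.92% at day 4. Both day 4 values were below both day 0 values with either nuclease, whereas the day 2 values overlapped those of day 0 with ssRNase.

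From day 0 to day 4 the share decreased by 0.585 percentage points (Newcombe 95% interval -0.711 to -0.459), and the 4 pairings of a day 4 with a day 0 replicate gave -0.766 to -0.447 points. From day 0 to day 2 it changed by 0.118 points, with pairs from -0.007 to 0.500, so its direction differed between pairs. At day 4 the ssRNase share exceeded the dsRNase share by 0.692 points, by 0.582 and 0.923 within the replicates. At day 0 the same difference was 0.080 points and at day 2 -0.298 points, and its sign differed between the replicates on both days. With 2 replicates against 2, an exact permutation test cannot reach significance, so no p-value was computed. The replicate sets of a day share merged coordinates, and their spread is therefore too small.

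**Figure D1:**
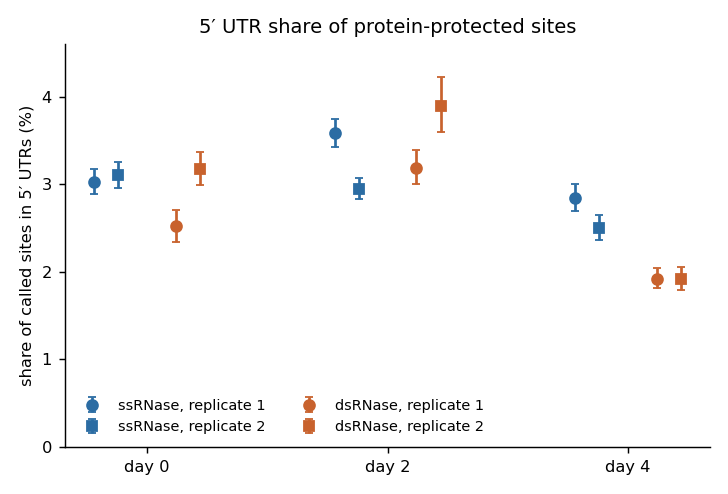
Share of called sites (%, y axis) whose midpoint lies in a 5′ UTR, by day and nuclease. Circles are replicate 1, squares replicate 2, and bars Wilson 95% intervals; the 4 day 4 points sit between 1.92% and 2.84%, below the day 0 points of the same nuclease.

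Sites in 5′ UTRs were called in both replicates somewhat more often than PPSs at large. At day 0, 1098 of 3217 sites (34.1%) held calls of both replicates, against 30.8% of all PPSs of that day. At day 2 the values were 39.4% and 30.8%, and at day 4 they were 39.1% and 35.8%. Among the top-scoring sites of day 0 the difference was -0.018 points, so the direction depends on the score range. Of the 3217 sites of day 0, 56.1% were overlapped on the same strand by a PPS of day 2, against 44.9% of all PPSs. By a PPS of day 4, 46.4% of them were overlapped, against 46.5% of all PPSs. Of the day 2 sites, 51.7% overlapped a PPS of day 0 and 48.0% one of day 4, against 44.1% and 47.7% of all day 2 PPSs. Of the day 4 sites, 54.5% overlapped a PPS of day 0 and 60.3% one of day 2, against 43.7% and 45.6% of all day 4 PPSs. Lengths were not matched in these overlaps. Among the 3624 genes, 989 held a 5′ UTR site at every day, 610 at day 0 only, 633 at day 2 only and 308 at day 4 only. When only sites with calls of both replicates were counted, 1826 genes remained. Of these, 292 held such a site at every day, 319 at day 0 only, 442 at day 2 only and 252 at day 4 only. The order of these classes thus depends on whether single-replicate sites are counted. Most genes held a single site at a given day (1728 of 2316 at day 0), and up to 14 were found in 1 gene.

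Most of the sites lay in the first exon, and midpoints were more frequent next to the start codon than next to the cap. The first exon held 79.5% of the sites at day 0, 81.2% at day 2 and 76.0% at day 4, and from day 0 to day 4 the pairs differed by -5.10 to -2.86 points. Distances were measured along the spliced transcript from the annotated cap, on the transcript with the longest coding sequence. The median midpoint lay 153 nt from the cap and 101 nt from the start codon at day 0, 150 and 111 nt at day 2, and 163 and 113 nt at day 4. The first 25 nt after the cap held 4.0% of the day 0 midpoints although they made up 7.5% of the 5′ UTR nucleotides of the same transcripts. The last 25 nt before the start codon, also 7.5% of the nucleotides, held 15.5% of them. From 25 to 50 nt after the cap the shares were 7.93% of the midpoints and 7.40% of the nucleotides. With a median length of 67 nt, a site that starts at the cap has its midpoint beyond the first 25 nt, so few midpoints there do not show that these nucleotides were uncovered. Both replicates showed the same order at day 0, with 3.9% and 4.0% near the cap and 14.8% and 15.8% near the start codon.

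On a scale from the cap (0) to the start codon (1), the median site of day 0 sat at 0.603, that of day 2 at 0.583 and that of day 4 at 0.598. Sites can run past either end of the 5′ UTR, into the coding sequence or upstream of the annotated cap. When only sites wholly inside 5′ UTR exons were counted, the day 0 median was 0.535, and on the transcript with the shortest 5′ UTR it was 0.556. On this relative scale, sites with dsRNase calls lay nearer to the start codon than sites with ssRNase calls, at 0.640 against 0.594 at day 0. That difference had the same sign in both replicates at each day. In nucleotides it did not at day 4, where the median site lay 107 nt from the start codon with ssRNase and 113 nt with dsRNase in replicate 1, and 115 and 103 nt in replicate 2.

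**Figure D2:**
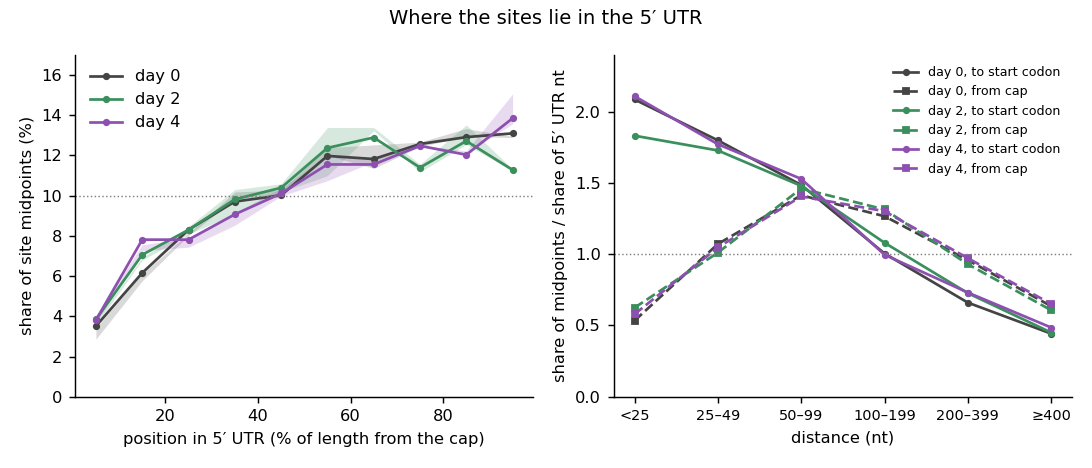
Left, share of site midpoints (%) in steps of 0.1 of the relative position from cap to start codon, with the range of the 2 replicates shaded and 10% (even spacing) dotted. Right, share of midpoints divided by the share of 5′ UTR nucleotides in each distance bin (nt), from the cap (dashed) and to the start codon (solid); at day 0 the step next to the cap held 3.51% and the step next to the start codon 13.1% of midpoints.

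A further property was how many sites ran into the coding sequence. At day 0, 18.1% of the sites overlapped the coding sequence of their transcript, at day 2 15.1% and at day 4 17.2%. With ssRNase the replicates of day 0 gave 17.5% and 18.5%, and with dsRNase 25.4% and 24.2%. At day 4 they gave 19.0% and 18.7% with ssRNase, and 20.6% and 22.7% with dsRNase. The dsRNase sites overlapped it more often than the ssRNase sites of the same replicate at each day. Further, 10.1% of the day 0 sites extended into an intron of the transcript and 6.7% began upstream of its annotated cap.

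Within 5′ UTRs, nucleotides in sites held less C than the uncovered 5′ UTR nucleotides of the same gene, and with ssRNase calls they held more G. Uncovered here means outside the sites of the set compared. Such nucleotides can lie in sites of the other nuclease or replicate, or in PPSs not counted as 5′ UTR sites. They are therefore not all unprotected. At day 0, across 2171 genes with at least 30 covered and 30 uncovered nt, covered nucleotides were 33.7% G and uncovered ones 32.1%. For C the values were 26.5% and 29.7%. C was lower in the sites in each of the 12 call sets (-4.53 to -3.01 percentage points). G was higher in all 6 ssRNase call sets, by 1.94 to 3.64 points. With dsRNase, G differed by -1.35 to 2.37 points and was higher in 3 of 6 call sets, both of day 2 and replicate 2 of day 0. G+C together decreased by 1.60 points in the sites at day 0, and over the 12 call sets the difference ranged from -5.09 to 0.437. The genes varied widely, with an SD of 10.2 points over genes for G+C at day 0.

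**Figure D3:**
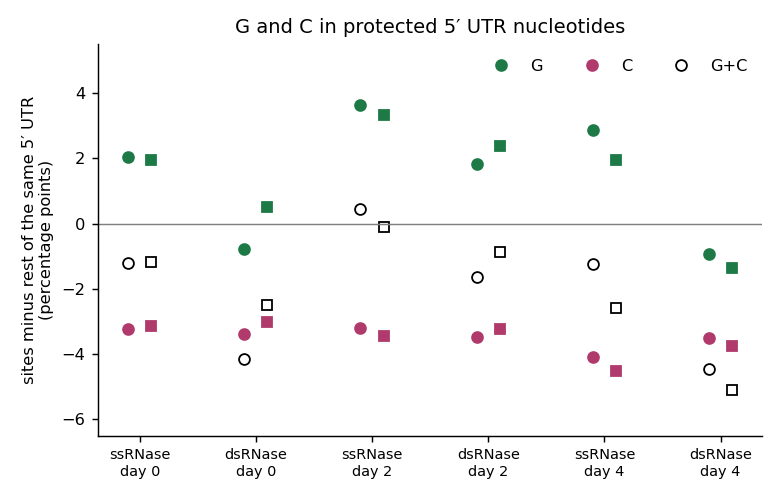
Percentage of G, C and G+C in the 5′ UTR nucleotides covered by a call set minus that in the uncovered ones of the same genes. Values are percentage points (y axis) for each day and nuclease. Uncovered nucleotides can lie in sites of other call sets. Circles are replicate 1 and squares replicate 2. C lies between -4.53 and -3.01 in the 12 call sets, and G is above 0 in all ssRNase call sets.

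Sites with ssRNase calls only held more G and more G+C than sites with dsRNase calls only. At day 0 the 1725 sites with ssRNase calls only had 34.1% G and 59.96% G+C, and the 668 sites with dsRNase calls only had 31.2% G and 58.2% G+C, a G+C difference of 1.73 points. Over all PPSs of day 0 the same classes had 46.8% and 45.2% G+C, a gap of similar size. At day 2 the 2134 and 460 such sites had 60.7% and 58.3% G+C, against 47.9% and 45.8% over all PPSs. At day 4 the 1200 and 797 such sites had 35.5% and 29.2% G and 60.3% and 55.1% G+C, against 48.6% and 44.1% over all PPSs. When sites with calls of both nucleases were included, the day 2 replicates differed in sign, with 61.4% G+C for ssRNase and 59.0% for dsRNase in replicate 1, and 60.5% and 61.5% in replicate 2. In the dsRNase call sets G+C was 56.7% and 58.6% at day 0 and 55.6% and 55.2% at day 4, so the groups did not overlap. Over all PPSs with dsRNase calls it was 45.6% at day 0 and 44.8% at day 4. Among 5′ UTR sites with ssRNase calls it was 59.2% in both replicates of day 0, and 59.6% and 57.9% at day 4.

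Short words were counted on the sense strand in the 50 nt around each midpoint and in all 50-nt windows of the same 5′ UTR. CCCC was found in 13.7% of the day 0 sites against 19.9% of the windows of their own 5′ UTRs, and in 21.8% of all 5′ UTR windows of the annotation. GGGG was found in 20.04% against 23.7%, and in 21.6% of all windows. ATG, the word of start codons and of upstream reading frames, was found in 27.9% against 25.4%, and in 30.2% of all windows. CTTTCC, a pyrimidine word like those at the caps of ribosomal protein messages, was found in 0.82% against 1.95%, and in 2.13% of all windows. Over the 6 replicate sets the difference was -7.77 to -5.83 points for CCCC, -5.10 to -1.22 for GGGG, 1.81 to 3.08 for ATG and -1.18 to -0.613 for CTTTCC, each with a single sign. CGGCGG, the word of GC-rich hairpin leaders, differed by -2.25 to -0.718 points and AAAAAA by -0.598 to -0.319. CAGTGN differed by 0.074 to 1.11 points, and GTAAGT, the start of an intron, by -0.077 to 0.074, with both signs. These comparisons do not account for where in the 5′ UTR a window lies, and the ATG of the main start codon is not part of them.

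The iron-responsive elements illustrate sites on a known protein-binding hairpin. In the messages of Fth1, Ftl1, Alas2, Slc40a1 and Epas1 a 5′ UTR held the loop of the element, CAGTGN, preceded at the known spacing by the bulged C. Over all 5′ UTR windows of 50 nt, 6.21% held CAGTGN by itself. The stretches around it are shown with the loop word CAGTGN in capitals.
Ftl1: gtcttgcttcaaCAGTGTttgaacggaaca
Fth1: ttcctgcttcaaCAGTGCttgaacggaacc
Slc40a1: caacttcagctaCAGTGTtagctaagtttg
Epas1: tacaatcctcggCAGTGTcctgagactgta
The Ftl1 stretch (chr7:45459778-45459807, minus strand, exon 1), from the ferritin light chain message, carried a site at each day, with calls of dsRNase replicate 1 at day 0 and day 4, and of ssRNase replicate 1 and both dsRNase replicates at day 2. The loops of Fth1 (chr19:9982732-9982761), Slc40a1 (chr1:45925464-45925493), Epas1 (chr17:86753768-86753797) and Alas2 held no PPS of any length at any day. Alas2, erythroid ALA synthase, had 38.2% of its exonic nucleotides in sites at day 4 but no 5′ UTR site. Slc40a1, the iron exporter ferroportin, had a 5′ UTR site at day 2 alone, with 0% and 11.3% coverage in its replicates. Coverage of the Ftl1 5′ UTR was 28.9% and 0% in the replicates of day 0, 26.5% in both of day 2, and 51.8% and 0% at day 4, so these groups overlapped. Ferritin genes have many near-identical copies, and the sites in them are uncertain. Of these 5 genes only Ftl1 and Slc40a1 held a 5′ UTR site, and neither changed with a single sign in all pairs. Fth1, Alas2 and Epas1 held none at any day, so no change could be measured in them.

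Changes per gene were measured as the percentage of the 5′ UTR nucleotides of a gene (over all its transcripts) that lay in 5′ UTR sites. A gene was called as gained or lost when coverage moved by at least 20 percentage points from day 0 and in the same direction in all 4 replicate pairs. A PPS counts over its full merged length for each replicate with a call in it. Equal values above 0 in both replicates of a day are therefore not separate measurements of coverage. For the same reason the spread over the 4 pairs is too small. Over the 3624 genes the mean was 11.5% and 12.2% in the replicates of day 0, 12.5% and 12.9% at day 2, and 10.0% and 8.43% at day 4. Among 3425 genes with at least 100 nt of 5′ UTR, 175 (5.11%) gained and 312 (9.11%) lost coverage by day 4. By day 2 the counts were 243 (7.09%) gained and 205 (5.99%) lost. Because a site that grows into the coding sequence leaves the 5′ UTR class by its midpoint, coverage by PPSs of any midpoint was also computed, a choice made after seeing the data. It gave 186 gained and 345 lost genes by day 4, and 163 and 302 of the genes called above were among them.

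The 5′ UTR moved together with the other exons in many of these genes. Of the 175 that gained, 113 (64.6%) also rose in all 4 pairs over their remaining exon nucleotides, against 37.7% of all tested genes, and 21 fell there. Of the 312 that lost, 145 (46.5%) fell over the remaining exon nucleotides, against 23.7% of all tested genes, and 60 rose there. By day 2, 22.6% of the 243 that gained rose over their other exons, against 19% of all tested genes, and 56.1% of the 205 that lost fell there, against 37.8%. Transcript levels were not analysed here, and their part in these changes was not tested.

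**Figure D4:**
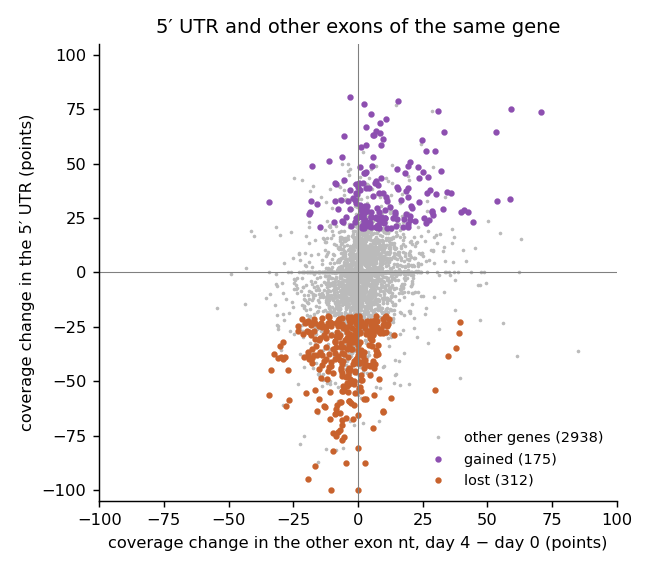
Change from day 0 to day 4 in the percentage of nucleotides in sites, in the other exon nucleotides of a gene (x axis, points) and in its 5′ UTR (y axis, points), for 3425 genes. Purple marks the 175 genes that gained and orange the 312 that lost 5′ UTR coverage; gained genes lie mostly to the right of 0 and lost genes more often to the left.

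The 8 largest rises, taken among genes whose 5′ UTR shares no position with exons of another gene, were in Tent4b, Trim10, Zfp950, Ufsp1, Mrfap1, Gadd45g, Lamp2 and Epor. In 7 of them 5′ UTR coverage was 0% at day 0. Trim10, an erythroid RING finger protein, had 0% in both replicates of day 0, 72.5% in both of day 2, and 68.2% and 44.9% at day 4. Epor, the erythropoietin receptor, had 20.1% and 0% at day 0, 37.6% in both replicates of day 2 and 90.8% in both of day 4. The Epor sites of days 0 and 2 were placed on a transcript with a 326-nt 5′ UTR that starts inside the gene. At day 4 a site of 68 nt lay in the 75-nt 5′ UTR of another transcript, and the other sites lay on the first transcript. All values of the later days lay above those of day 0 in both genes.

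Gadd45g, a stress-inducible growth arrest gene, had 0% in all replicates of days 0 and 2 and 73.5% in both of day 4, where its other exons rose from 5.0% to 75.6%. With PPSs of any midpoint, Gadd45g had 0% and 22.5% in the replicates of day 2. Ufsp1, a protease of the UFM1 pathway, had 0% at day 0 and 75.2% in both replicates of day 4, and its other exons rose from 6.8% to 66.0%. Lamp2, a lysosomal membrane protein, had 0% at day 0, 74.8% in both replicates of day 2 and 72.8% in both of day 4. Mrfap1 had 0%, 79.3% and 74.3% in the replicates of day 0, day 2 and day 4, each value shared by both replicates. Zfp950, a zinc finger gene, had 0%, 82.7% and 77.3% in the same way, with only 2.3% of its other exons in sites at day 4. Tent4b, a noncanonical poly(A) polymerase, had 0% at day 0, and 80.6% and 24.6% at day 4. With PPSs of any midpoint it already had 24.6% at day 0, and its pairs then ranged from 0 to 56.0 points, so that it was no longer called. The other exons rose in all pairs in 7 of the 8 genes.

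The 8 largest falls were in Aatf, Gins1, Derl1, Traip, Dnm2, Taco1, Nop16 and Ints1, and all 8 had 0% at day 4. Aatf, an apoptosis-antagonizing nucleolar factor, had its whole 5′ UTR of 140 nt covered in both replicates of day 0, 52.1% in both of day 2 and 0% at day 4. Gins1, a subunit of the replicative helicase complex, had 100% in both replicates of day 0, and 85.6% and 49.6% at day 2. Only 0.1% of the other exon nucleotides of Gins1 lay in sites at day 0. Traip, an E3 ligase of the DNA damage response, had 89.1% in both replicates of day 0 and 0% from day 2 on, and its other exons fell from 26.9% to 10.4%.

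Derl1, a component of the endoplasmic reticulum degradation channel, had 71.2% and 94.8% at day 0 and 94.8% in both replicates of day 2. Dnm2, the GTPase dynamin 2, had 87.8% in both replicates of day 0, and 0% and 56.9% at day 2. Taco1, a mitochondrial translation activator, had 87.7% in both replicates of day 0, and Nop16, a nucleolar protein of ribosome biogenesis, had 82.1% in both. Ints1, a subunit of the Integrator complex, had 56.4% and 80.9% at day 0. The other exons fell in 4 of the 8 genes, rose in 1 (Ints1) and had pairs of mixed sign in 3. With PPSs of any midpoint, 7 of these 5′ UTRs remained at 0% at day 4 and Derl1 had 10.5%.

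The 5 5′ UTRs with the highest minimum coverage over the 6 sets of a day and a replicate were those of Ptma, Zfp809, Ogt, Mta2 and Sec22b. Ptma, the small acidic nuclear protein prothymosin alpha, had 94.4%, 100% and 80.0% at days 0, 2 and 4, the same in both replicates. Zfp809, a zinc finger repressor of retroviral elements, had 97.4%, 99.1% and 74.1%, so although its coverage stayed high it is among the 312 genes that lost coverage by day 4 (-23.3 points in every pair). Ogt, which adds O-GlcNAc to proteins, had 69.0%, 70.4% and 85.4%, and Mta2 had 68.1%, 65.6% and 69.8%. Sec22b, a vesicle fusion protein, had 75%, 69.2% and 64.7%. In the sets of Mgea5 coverage was 27.4% and 28.7% at day 0, 40.4% and 36.8% at day 2, and 66.8% and 52.2% at day 4, all day 4 values being above those of day 0. Fam193b rose likewise, from 21.4% and 14.9% to 45.3% and 46.5%. Arf6 fell from 81.1% and 88.8% to 22.2% and 27.0%, and Man1a2 had 69.3% and 55.4% at day 0 and 64.7% in both replicates of day 4, with pairs of both signs.

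Genes of erythroid maturation included 10 whose 5′ UTR coverage rose with differentiation and 4 whose coverage fell. Of 42 listed genes with an exonic site, 28 (66.7%) held a 5′ UTR site at some day, against 38.7% of all genes with an exonic site. From day 0 to day 4, 10 of the 28 (35.7%) rose in all 4 pairs and 4 (14.3%) fell, while 13.1% of all genes with a 5′ UTR site rose and 19.1% fell. The median change was 0 points both over the 28 and over all these genes. Exonic coverage of the 12 erythroid markers, summed over the markers, was 206.7, 347.5 and 551.5 percentage points at days 0, 2 and 4, and its part in these changes was not tested. The list has no test.

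Among the heme synthesis enzymes, Ppox had 0% until day 2 and 28.0% in both replicates of day 4. Cpox, the enzyme before Ppox, went the other way, with 77.2% and 57.4% at day 0, 62.5% and 0% at day 2, and 0% at day 4. Among the membrane and skeleton genes, Epb41 had 14.1% and 11.4% at day 0, 30.6% and 33.9% at day 2, and 29.2% and 38.2% at day 4. Ank1, which anchors the spectrin network, had 0% in both replicates of day 0, and 22.1% and 11.4% at day 4. Kel, a blood group protein, had 43.9% in both replicates of day 0 and 58.3% in both of day 4. The tetraspanin Tspan33 had 0% at day 0 and 27.6% in both replicates of day 4, and smaller rises in all pairs were found in Dmtn and Bcl2l1.

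The other falls were in Ermap (61.6% and 37.6% at day 0, 24.8% and 0% at day 4), the transcription factor gene Lmo2 (34.0% in both replicates of day 0, 10.5% in both of day 4) and Nfe2 (17.4% and 12.1%, then 10.5% and 3.1%). Of the 10 genes that rose, 9 also rose over their other exons in all pairs. Of the 4 that fell, 2 fell and 2 rose there. With PPSs of any midpoint, 13 of the 28 rose and 4 fell, against 15.2% and 22.4% of all genes with a 5′ UTR site. The globin genes show why this matters. Hba-a1 had 0% and 23.5% of its 5′ UTR in 5′ UTR sites in the replicates of day 0, 30.6% in both of day 2 and none at day 4, although PPSs of any midpoint covered 58.7% and 48.5% of its 5′ UTR in the replicates of day 4. For Hbb-bs the latter value was 38.4% in both replicates. The globin genes have near-identical copies, so the assignment of their sites is uncertain.

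**Figure D5:**
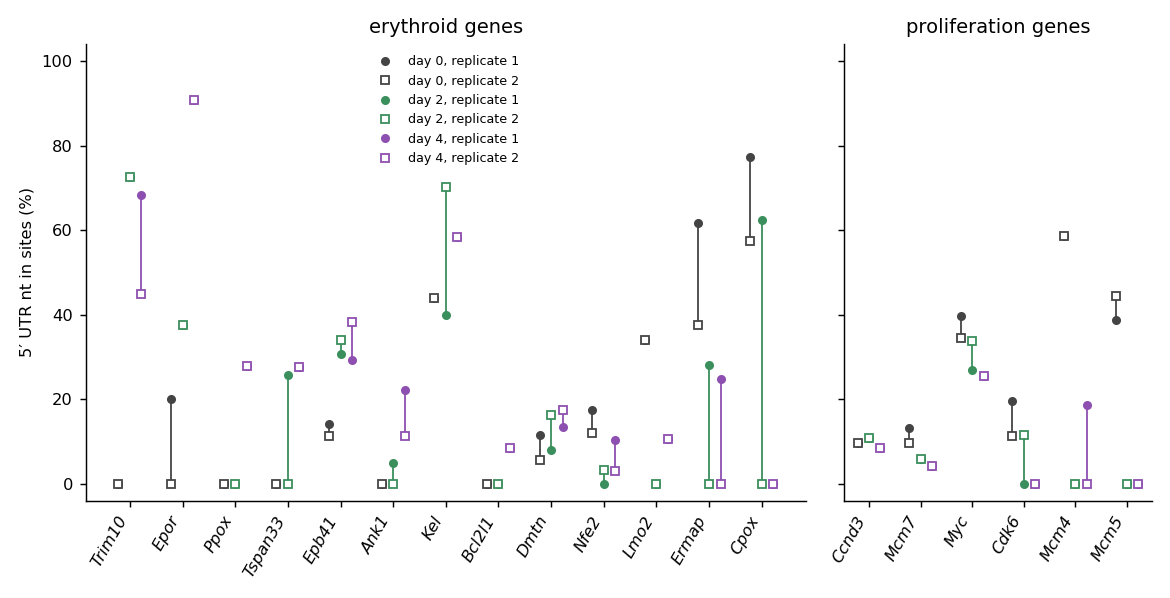
Percentage of 5′ UTR nucleotides in sites (y axis) for 13 of the 14 erythroid genes (1 is not drawn) and the 6 proliferation genes that moved with a single sign in all 4 pairs from day 0 to day 4. Filled circles are replicate 1 and open squares replicate 2 (a square alone means equal values), joined by a line within a day; the proliferation genes are all lower at day 4.

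Among proliferation genes, coverage of the 5′ UTR from day 0 to day 4 fell in 6 and rose in none. Of 17 listed genes with an exonic site, 11 (64.7%) held a 5′ UTR site, against 38.7% of all genes with an exonic site. The 6 that fell in all 4 pairs are 54.5% of the 11, against 19.1% of all genes with a 5′ UTR site, and 13.1% of all those genes rose. The median change was -14.3 points over the 11. From day 0 to day 2, 2 of the 11 rose (18.2%) and 4 fell (36.4%), against 20.2% and 16.5% of all genes with a 5′ UTR site. The replicative helicase subunit gene Mcm5 had 38.7% and 44.5% in the replicates of day 0 and 0% on both later days. Of the same complex, Mcm4 had 58.6% in both replicates of day 0, 0% at day 2, and 18.6% and 0% at day 4, and Mcm7 fell as well. Myc had 39.6% and 34.5% at day 0 and 25.6% in both replicates of day 4. Cdk6 had 19.6% and 11.4% at day 0 and 0% at day 4, and Ccnd3 had 9.6% in both replicates of day 0 and 8.5% in both of day 4, a difference of about 1 point. Of the 6 that fell, 4 also fell over their other exons, and Ccnd3 rose there.

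Messages with known upstream reading frames held 5′ UTR sites in 9 of 12 genes with an exonic site (75%, against 38.7% of all genes). The median 5′ UTR length was 581 nt for this list and 255 nt for all genes with an exonic site. Lengths were not matched, so the 2 shares are not directly comparable. From day 0 to day 4, 3 rose (33.3%, against 13.1%) and 4 fell (44.4%, against 19.1%). Ppp1r15a, a regulatory subunit of the phosphatase that reverses the integrated stress response, had 14.1% and 6.4% at day 0, 20.5% in both replicates of day 2, and 29.8% and 25.8% at day 4. Its paralog Ppp1r15b and the stress transcription factor gene Atf4 rose as well, Atf4 from 8.4% and 0% to 21.9% and 10.77%, with 40.6% in both replicates of day 2. Ibtk had 18.8% and 9.3% at day 0 and 0% at day 4, and Ifrd1 had 7.7% and 7.1% and then 0%. The polyamine genes Odc1 and Azin1 fell, Azin1 from 34.4% and 37.8% to 20% and 19.2%. Of the 3 that rose, 2 also rose over the other exons in all pairs. None of the 4 that fell also fell over the other exons, and 2 rose there.

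Ribosomal protein messages have short leaders that begin with a pyrimidine tract. Of 68 such genes with an exonic site, 27 (39.7%) held a 5′ UTR site at some day, against 38.7% of all genes. By day the counts were 18 (26.5%, against 24.7%), 15 (22.1%, against 26.3%) and 10 (14.7%, against 20.4%). From day 0 to day 4, 2 rose and 4 fell in all pairs, or 7.41% and 14.8% of the 27, against the 13.1% and 19.1% above. With PPSs of any midpoint 2 rose and 7 fell (25.9%, against 22.4%), so the share that fell moved from below to above that of all genes. Rpl26 had 22.1% and 48.9% at day 0 and 0% on both later days, and Rpl31 had 21.2% and 16.3% and then 0%. With PPSs of any midpoint, Rpl26 had 0% and 15.7% in the replicates of day 2 and 1.3% in both of day 4. These values cover the 5′ UTRs of all transcripts, 235 nt in Rpl26 and 307 nt in Rpl31, and not a single short leader. The day 0 sites were placed on different transcripts, with 5′ UTRs of 47 and 128 nt in Rpl26 and 78 and 220 nt in Rpl31. The Rpl26 site on the 47-nt 5′ UTR had 23 of its 52 nt in an intron. In both genes the other exons rose in all pairs. Of the translation factors and other messages with such leaders, 11 had an exonic site and 3 (27.3%) held a 5′ UTR site, of which 1 rose and none fell. Npm1, nucleophosmin, had 0% in both replicates of day 0 and 25.6% in both of day 4. Ribosomal protein genes have many processed copies in the genome, so the calls in them are uncertain.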

How the data were processed

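Strand-specific PIP-seq libraries of MEL cells (24, in 12 groups of 2) were made, mapped and called by the authors. The submitters' processing notes name cutadapt 1.2.1, TopHat2 2.0.10 and mm10, and per the study's methods PPSs were called with a modified CSAR package against the protein-removed libraries. The deposited score, whose scaling between libraries is not given in the sources used here, was used for ranking only.

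Midpoints were placed on GENCODE M21 transcripts with Python 3.11.15, numpy 2.4.6, pandas 2.3.3 and scipy 1.17.1. A site in the 5′ UTRs of several genes (99 sites) was given to the transcript with the longest coding sequence. Coding sequence of the opposite strand did not remove sites (15, 12 and 9 midpoints at days 0, 2 and 4), and sites under 20 nt were kept (72, 76 and 73). Replicate numbers mark samples split between the nucleases within a day, and nothing ties them across days, so changes between days are given over all 4 pairs. Replicates are separate samples of a single cell line. Wilson and Newcombe 95% intervals cover counting error only.

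Members and lists were chosen with earlier results of these data known. Named were, per list, up to 3 genes with the largest change of a single sign in all pairs, the 8 largest rises and falls and the 5 5′ UTRs with the highest minimum coverage (at least 100 nt, sites of both replicates, no predicted genes, no shared exons), the 2 highest scores of each day and the iron-responsive element genes. Other genes of the lists were named after their values were seen. Some genes of the lists are counted but not reported by name here. The code that calls gained and lost genes was run on simulated data of 1000 genes, where 100 of 100 gained and 100 of 100 lost genes were recovered. How often genes are wrongly called or missed in the deposited lists was not tested. At day 0, 1900 of the 3217 sites held a single call. Alternatives were PPSs of 20 to 40 nt kept, the 57453 top-scoring PPSs of each list, sites wholly inside 5′ UTRs, basic transcripts, the shortest 5′ UTR, calls of both replicates or of a single nuclease, 10 points in place of 20, each replicate left out, the replicate block and, chosen after seeing the data, PPSs of any midpoint.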

Additional observations from a re-analysis of the deposited data

Results flagged for a closer look

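The share of sites that overlap the coding sequence changed in opposite directions with the nucleases between day 0 and day 4. Over the 4 pairs it rose by a mean of 0.881 percentage points with ssRNase and decreased by a mean of 3.16 points with dsRNase, a difference of 4.04 points. Each ssRNase pair moved up and each dsRNase pair moved down; the difference was not tested.

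PPSs of 20 to 40 nt, which the comparisons leave out, also had midpoints in 5′ UTRs. There were 640 at day 0 (2.69% of that length class), 1137 at day 2 (2.27%) and 696 at day 4 (2.28%). Only 2.34%, 5.89% and 3.45% of them held calls of both replicates.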

How the results depend on the processing

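The decrease of the 5′ UTR share from day 0 to day 4 kept its direction under every alternative run. It was -0.740 points among top-scoring sites, -0.412 for sites wholly inside 5′ UTRs, -0.393 with ssRNase calls only, -1 with dsRNase calls only, and -0.756 to -0.474 with each replicate left out. The change from day 0 to day 2 had no stable direction. It was -0.0548 with 20 to 40 nt kept, 0.346 among top-scoring sites, 0.625 with calls of both replicates, 0.427 with dsRNase calls only, -0.0533 without day 0 replicate 1 and up to 0.473 without day 2 replicate 2. The ssRNase minus dsRNase difference at day 0 was -0.00529 on basic transcripts, -0.0753 without day 0 replicate 1 and 0.507 without day 0 replicate 2. At day 2 it ran from -0.949 to 0.391, the latter without day 2 replicate 2, and at day 4 from 0.582 to 0.923. The median relative position at day 0 was 0.616 with 20 to 40 nt kept, 0.620 among top-scoring sites, 0.535 wholly inside, 0.594 with ssRNase calls only, 0.640 with dsRNase calls only, 0.556 on the shortest 5′ UTR, and 0.599 to 0.610 with a replicate left out. At day 0, G+C in sites minus the rest of the same 5′ UTRs stayed below 0: -1.68 with 20 to 40 nt kept, -1.99 among top-scoring sites, -0.968 wholly inside, -2.08 on basic transcripts, -2.23 with calls of both replicates, -1.10 with ssRNase calls only, -2.85 with dsRNase calls only and -1.79 to -1.76 with a replicate left out. The G+C difference between nucleases at day 0 was 5.68 with calls of both replicates and 0.876 to 2.97 with a replicate left out. The excess of sites with calls of both replicates at day 0 was -0.018 among top-scoring sites and 0.273 wholly inside. With 10 points, 292 genes gained and 469 lost coverage; with a replicate left out, 204 to 250 gained and 353 to 440 lost, where only 2 pairs had to share a sign. In the replicate block, with same-numbered replicates paired, the day 4 minus day 0 share was -0.607 points, the G+C difference was -1.77, and 176 genes gained and 315 lost coverage; no direction changed. The excess of sites with calls of both replicates could not be computed with a replicate left out. Among the alternatives chosen after seeing the data, PPSs of any midpoint gave 186 gained and 345 lost genes. The cause of these shifts was not tested. Read depth is unknown, and the smallest call set (14832 PPSs) limits the dsRNase values of day 2.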
